A study of Mus musculus with 18 samples.

Results

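The WNT genes described here are 48 mouse genes that encode WNT ligands with their acyltransferase Porcn, receptors and co-receptors, secreted and membrane inhibitors, regulators of receptor turnover, and intracellular transducers with feedback genes. They were found by gene symbol among the 32699 symbols of the deposited count table, where all 48 were present, and 26 of them had enough counts to be tested among 12145 tested symbols. RNA came from PyMT-BO1 cells, a luminal B-like breast cancer line on a C57BL/6 background in which integrin β3 was knocked out. Every group, the controls included, therefore carries that knockout. A retroviral vector then carried human β3 that functions (hβ3), a β3 mutant that cannot signal (Δβ3) or no insert (pMx). The 6 groups were hβ3 with docetaxel, hβ3 with DMSO, Δβ3 with docetaxel, Δβ3 with DMSO, pMx with docetaxel and pMx with DMSO. Docetaxel, a taxane that stabilises microtubules, was given at 10 nM for 24 h, and each group had 3 cultures in plates. Each construct is represented by 1 line, so a p-value weighs a difference against culture-to-culture variation, and effects of β3 and of the line itself cannot be told apart. Only RNA was measured, and in bulk RNA fewer cells with a transcript and less RNA per cell cannot be told apart.

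WNT proteins are secreted after Porcn attaches a fatty acid to them, and they bind Frizzled receptors together with the co-receptors Lrp5 and Lrp6. In the canonical branch this binding stops the Axin complex from degrading β-catenin (Ctnnb1), which then acts with the TCF and LEF factors on target genes. Several of the targets, such as Axin2, Notum, Apcdd1 and Znrf3, encode brakes on the pathway, and in the mammary gland WNT signals are known for their part in stem and progenitor cells of the epithelium.

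Levels are in CPM, the number of counts in 1000000 after library sizes were scaled, and the libraries held between 7972612 and 18961392 counts. Itgb3, which encodes integrin β3, had 72.2 to 130.6 CPM in the hβ3 cultures, 32.9 to 113.5 CPM in the Δβ3 cultures and 0.322 to 1.3 CPM in the pMx cultures. The insert of hβ3 is human while the build named for the reads is mouse (mm10), and the part of this in its Itgb3 level was not tested. The summed level of 24 heart muscle markers reached 51766 CPM in culture 2 of Δβ3 with docetaxel and 6217 CPM in culture 1 of Δβ3 with DMSO, against 204.7 to 2621 CPM in the other 16 libraries. Among those 16 libraries the 3 highest sums were all in pMx. Fibroblast (1308 CPM), endothelial (734.7 CPM), leukocyte (229.7 CPM) and basal (154.0 CPM) marker sums were also highest in Δβ3 docetaxel culture 2. The sum of 10 luminal epithelial markers was lowest in that culture, at 1231 CPM, and in the 16 libraries it was 1981 to 2525 CPM in hβ3, 3050 to 3416 CPM in Δβ3 and 2176 to 2588 CPM in pMx. The ribosomal RNA gene Rn45s took 10.9 to 33.0% of the counts in hβ3, 6.92 to 41.5% in Δβ3, with the highest share in Δβ3 DMSO culture 1, and 6.59 to 9.81% in pMx. Of 10 luminal and 8 basal markers 9 and 7 had counts, and 4 and 2 had enough counts to be tested. The defining markers Gata3 (luminal) and Trp63 (basal) were at 0 in every library, and the part of the read counting in these zeros was not tested. Results are therefore given from all 18 libraries and again from 16, which leaves 2 cultures in each Δβ3 group.

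**Figure D1:**
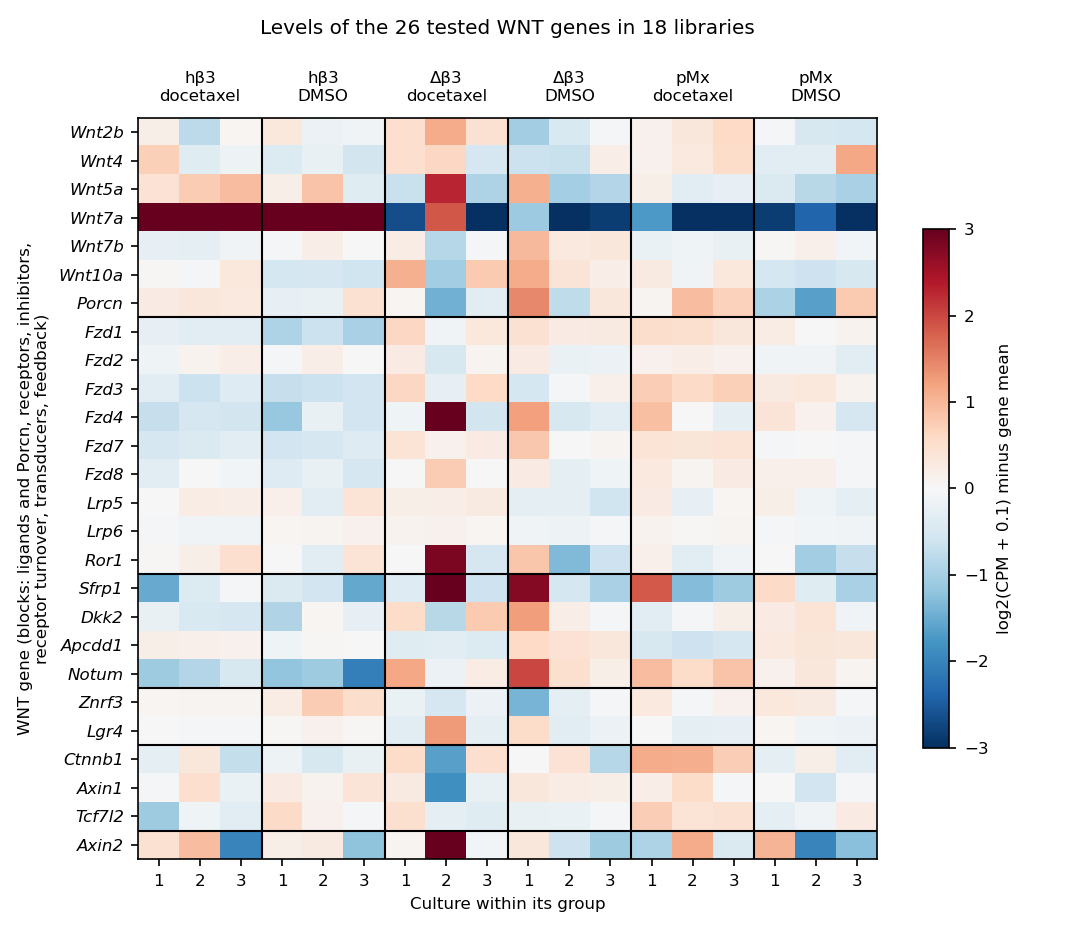
Level of each of the 26 tested WNT genes (rows, in blocks by role) in 18 libraries (columns, 3 cultures per group), as log2(CPM + 0.1) minus the mean of the gene, with colours ending at 3 above and below that mean. Wnt7a stood out in all 6 hβ3 libraries, and Δβ3 docetaxel culture 2 carried high values of Fzd4, Ror1, Sfrp1 and Axin2.

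Of 15 genes in the ligand group, Porcn included, 7 were tested, as were 9 of 13 receptors and co-receptors, 4 of 8 extracellular or membrane inhibitors, 2 of 4 genes of receptor turnover, 3 of 6 transducers and nuclear factors, and 1 of 2 feedback inhibitors. Only levels per kilobase can be set side by side between genes, and only for genes with a single transcript model, whose reads are not divided between models. On that scale the median levels over 18 libraries, all lines together, were 22.0 CPM per kb for Fzd7, 20.2 CPM per kb for Fzd2 and 11.3 CPM per kb for Fzd8. Lgr4, a receptor for R-spondins, had 8.76 CPM per kb, Fzd1 8.75 CPM per kb, the ligand Wnt10a 3.42 CPM per kb and Fzd3 2.75 CPM per kb. Within hβ3 the ligand Wnt7a stood above all of these, at 24.0 to 43.0 CPM per kb in the 6 cultures, where the highest level of Fzd2, the next in order, was 22.6 CPM per kb. This order leaves out genes with several models, among them Lrp6, Apcdd1 and Wnt7b, with medians of 194.9, 179.3 and 62.8 CPM.

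The 22 genes that were not tested had few counts over all 18 libraries together. Wnt9a, Wnt10b, Wnt11, the receptor Ryk and the inhibitors Dkk1 and Dkk3 had 0 counts. A count of 0 over all 18 libraries allows a level of up to 0.0126 CPM, for counting error alone. This bound does not cover any reads left uncounted because they match several transcript models, which 5 of these 6 genes have. Lgr5, a stem cell marker that binds R-spondins, had 35 counts, Wnt6 39, Wnt3 42, Wnt2 14, Wnt5b 6 and Wnt3a 5. Fzd5 had 47 counts and Fzd6 11, while the ubiquitin ligase Rnf43, which removes Frizzled from the surface, had 20. Of the TCF and LEF factors, Tcf7 had 27 counts, Lef1 3 and Tcf7l1 2. Ror2 (47), Sfrp2 (36), Nkd1 (22) and Wif1 (18) took most of their counts from Δβ3 docetaxel culture 2, where they had 39, 22, 16 and 15 counts.

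Of the 28 WNT genes with several transcript models 5 had 0 counts, and of the 20 with 1 model 1 had 0 counts. The sources used here do not say how reads matching several models were counted. Ctnnb1, with 4 models, had a median of 1.11 CPM, and the part of the counting in such levels was not tested.

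Upstream sequences are shown for 3 genes whose levels set the lines apart, the ligand Wnt7a and the receptors Fzd1 and Fzd7. Each window runs from 250 bases before to 50 bases after the gene start in RefSeq (GRCm38.p6) and is read along the gene. They are Wnt7a at chr6:91411304-91411603 (minus strand), Fzd1 at chr5:4758167-4758466 (minus strand) and Fzd7 at chr1:59481897-59482196 (plus strand). The Fzd1 and Fzd7 windows lie wholly upstream of these genes in GENCODE M21, which start there at 4758035 and 59482424, so RefSeq and GENCODE place the starts differently. Capitals mark the GC box GGGCGG or a TCF motif (CTTTG followed by AA, AT, TA or TT), on either strand.
Wnt7a: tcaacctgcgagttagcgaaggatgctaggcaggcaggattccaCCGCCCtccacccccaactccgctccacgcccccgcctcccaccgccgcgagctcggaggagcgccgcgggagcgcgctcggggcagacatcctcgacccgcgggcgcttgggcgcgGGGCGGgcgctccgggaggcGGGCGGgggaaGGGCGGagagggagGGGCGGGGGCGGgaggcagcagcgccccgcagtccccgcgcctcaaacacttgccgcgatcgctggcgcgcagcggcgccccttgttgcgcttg
Fzd1: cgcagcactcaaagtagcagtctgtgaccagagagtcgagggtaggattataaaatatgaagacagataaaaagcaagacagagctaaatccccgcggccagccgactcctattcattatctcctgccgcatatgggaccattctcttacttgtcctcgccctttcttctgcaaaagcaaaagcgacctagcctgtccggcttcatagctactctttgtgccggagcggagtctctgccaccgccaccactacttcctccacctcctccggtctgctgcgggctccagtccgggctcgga
Fzd7: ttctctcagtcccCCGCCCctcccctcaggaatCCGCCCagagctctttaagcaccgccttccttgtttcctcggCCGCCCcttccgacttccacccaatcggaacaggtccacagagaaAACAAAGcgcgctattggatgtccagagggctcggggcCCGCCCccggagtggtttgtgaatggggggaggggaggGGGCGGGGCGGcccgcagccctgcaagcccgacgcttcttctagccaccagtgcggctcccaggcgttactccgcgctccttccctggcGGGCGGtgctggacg
The Wnt7a window held 6 GC boxes and no TCF motif, the Fzd1 window neither, and the Fzd7 window 7 GC boxes and 1 TCF motif. Windows were found for 31 of the 48 genes, 41 windows in all. A TCF motif was present in 17.1% of these 41 windows and in 16.9% of all 32851 windows, and a GC box in 73.2% and 35.7%. A match is a string of letters and no measure of binding.

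The first set of comparisons asked how the lines differed. In hβ3 the ligand Wnt7a was 287-fold higher than in pMx in DMSO (fitted), while the Frizzled receptors Fzd1, Fzd3 and Fzd7 and the WNT-inactivating enzyme Notum were lower, each called in at least 3 of the 4 comparisons of hβ3 with another line. The membrane inhibitor Apcdd1 was lower in hβ3 than in both other lines in DMSO and higher than in both in docetaxel. No WNT gene was called between Δβ3 and pMx. In DMSO 5 of 26 tested WNT genes were called in hβ3 against pMx (1 higher and 4 lower, edgeR quasi-likelihood test, adjusted p under 0.05), beside 9.02% of all tested genes (4.88% higher and 4.13% lower). Against Δβ3 in DMSO 7 were called (2 higher and 5 lower), beside 13.1% of all tested genes (6.27% higher and 6.86% lower). In docetaxel 6 were called in hβ3 against pMx (2 higher and 4 lower), beside 8.46% of all tested genes (4.63% higher and 3.83% lower), and 5 against Δβ3 (2 higher and 3 lower), beside 10.1% of all tested genes (4.38% higher and 5.69% lower). With 16 libraries the counts were 8, 11, 11 and 10, where 26.8%, 23.3%, 27.3% and 19.9% of all tested genes were called.

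The Rn45s share was higher in every hβ3 culture than in every pMx culture. In the 16 libraries it was also higher in every hβ3 culture (10.9 to 33.0%) than in every Δβ3 culture (6.92 to 10.0%). The luminal marker sum was lower in hβ3 than in Δβ3 in the 16 libraries. In DMSO this sum was also lower in every hβ3 culture (1981 to 2077 CPM) than in every pMx culture (2248 to 2588 CPM). In docetaxel the sums of hβ3 and pMx overlapped. The luminal keratins Krt8 and Krt18 were not called between hβ3 and Δβ3 with 18 libraries. With 16 they were lower in hβ3 in DMSO (log2 -0.74 ± 0.077 for Krt8 and -0.59 ± 0.080 for Krt18, SE, adjusted p = 4.77e-08 and 3.06e-06) and in docetaxel (-0.50 ± 0.077 and -0.36 ± 0.080, adjusted p = 2.49e-05 and 0.00161). Between hβ3 and pMx Krt8 was lower in hβ3 in DMSO with 16 libraries (-0.345 ± 0.070, adjusted p = 0.000481, edgeR). Krt18 was not called there (adjusted p = 0.113), and neither was called in docetaxel or with 18 libraries. The part of the Rn45s share and of the luminal transcripts in the differences of the WNT genes was not tested.

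Wnt7a, a ligand of both canonical and other WNT branches, lies on chromosome 6 (91363981 to 91411363, minus strand, mm10). It had 76.4, 76.8 and 80.7 CPM in the hβ3 docetaxel cultures and 136.7, 121.8 and 131.3 CPM in the hβ3 DMSO cultures. Δβ3 cultures had 0.499, 13.8 and 0.359 CPM in docetaxel and 1.68, 0.155 and 0.433 CPM in DMSO. The empty vector line had 1.06, 0.28 and 0.375 CPM in docetaxel and 0.433, 0.637 and 0.258 CPM in DMSO. All 6 hβ3 cultures lay above all 12 others, and among those 12 the highest was Δβ3 docetaxel culture 2, the culture with the high heart marker sum.

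**Figure D2:**
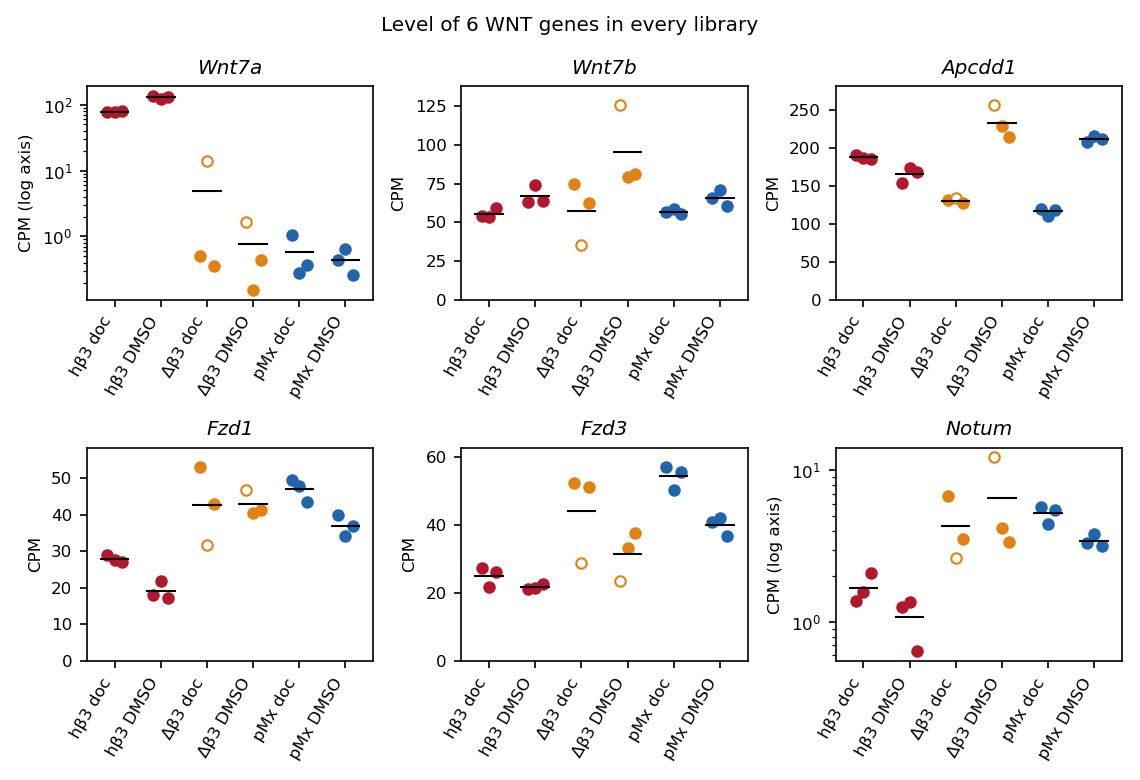
CPM of 6 WNT genes in every library, 3 cultures per group, with the group mean as a line. Wnt7a and Notum are on log axes and the others on linear axes from 0. Open points are Δβ3 docetaxel culture 2 and Δβ3 DMSO culture 1, and doc is docetaxel. Wnt7a separated hβ3 from both other lines, and docetaxel moved Apcdd1 down in Δβ3 and pMx but not in hβ3.

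In DMSO the level of Wnt7a averaged 129.9 ± 7.52 CPM in hβ3 and 0.443 ± 0.19 CPM in pMx (SD, n = 3 each), a fitted log2 difference of 8.16 ± 1.27 (SE, adjusted p = 0.00105, edgeR). This is 287-fold, with 4 to 10 Wnt7a counts per pMx DMSO library. Against Δβ3 the log2 difference was 7.48 ± 1.23 in DMSO (adjusted p = 0.00122). In docetaxel it was 7.17 ± 1.23 against pMx (adjusted p = 0.00248). Against Δβ3 in docetaxel it was 4.13 ± 1.02 with 18 libraries (adjusted p = 0.0225) and 7.44 ± 0.25 with 16. The call of that last difference was lost without hβ3 docetaxel culture 1, 2 or 3 (adjusted p up to 0.0607), while the calls of the other 3 Wnt7a differences held without each library in turn. DESeq2 gave no adjusted p for Wnt7a in any of the 13 comparisons.

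Wnt7b, a ligand close in sequence to Wnt7a, had its lowest and highest level in Δβ3. It had 53.9, 53.7 and 59.3 CPM in hβ3 docetaxel and 63.2, 74.2 and 63.6 CPM in hβ3 DMSO. Levels in Δβ3 were 74.8, 35.3 and 62.3 CPM in docetaxel and 125.6, 79.0 and 81.1 CPM in DMSO, and those in pMx were 56.3, 58.4 and 55.1 CPM in docetaxel and 66.0, 71.0 and 60.7 CPM in DMSO. Those extremes were the 2 Δβ3 cultures with high heart marker sums, and no difference between lines was called with 18 libraries. With 16 libraries Wnt7b was lower in hβ3 than in Δβ3 in docetaxel (-0.31 ± 0.10, adjusted p = 0.0315).

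Wnt10a, a ligand of the canonical branch, had 6.92, 6.48 and 8.41 CPM in hβ3 docetaxel and 4.64, 4.77 and 4.47 CPM in hβ3 DMSO. Its levels in Δβ3 were 14.3, 3.26 and 11.8 CPM in docetaxel and 14.7, 8.92 and 7.79 CPM in DMSO. In pMx they were 8.25, 6.26 and 8.44 CPM in docetaxel and 4.67, 4.39 and 4.84 CPM in DMSO. The hβ3 DMSO cultures lay below all Δβ3 DMSO cultures and among the pMx ones. The difference of -1.17 ± 0.37 to Δβ3 in DMSO (adjusted p = 0.0457) held without Δβ3 DMSO culture 3, Δβ3 docetaxel culture 1 or Δβ3 docetaxel culture 2 and was lost in the other 15 fits that left out 1 library (adjusted p up to 0.193). With 16 libraries it was -0.87 ± 0.19 in DMSO (adjusted p = 0.0012) and -0.86 ± 0.18 in docetaxel (adjusted p = 0.000925).

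Wnt5a, a ligand that mainly signals without β-catenin, had 2.92, 3.71 and 4.12 CPM in hβ3 docetaxel and 2.42, 3.91 and 1.63 CPM in hβ3 DMSO. It had 1.31, 10.7 and 1.08 CPM in Δβ3 docetaxel and 4.54, 1.01 and 1.12 CPM in Δβ3 DMSO. The pMx values were 2.43, 1.68 and 1.78 CPM in docetaxel and 1.56, 1.15 and 1.03 CPM in DMSO. The highest 2 of 18 values were those of the Δβ3 cultures with high heart marker sums, and the hβ3 cultures lay above those of pMx in both treatments. No line difference of Wnt5a was called with 18 libraries. With 16 it was higher in hβ3 than in pMx by 1.09 ± 0.32 in DMSO (adjusted p = 0.011) and by 0.86 ± 0.30 in docetaxel (adjusted p = 0.0335), and than in Δβ3 by 1.30 ± 0.38 and 1.56 ± 0.36 (adjusted p = 0.0123 and 0.00242). The other tested genes of the ligand group, Wnt2b (0.691 to 3.42 CPM), Wnt4 (0.388 to 1.61 CPM) and Porcn (0.127 to 1.78 CPM), were called between no pair of lines in either fit.

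Fzd1, a Frizzled receptor on chromosome 5 (4753839 to 4758035, minus strand), had 29.1, 27.6 and 27.0 CPM in hβ3 docetaxel and 18.1, 21.9 and 17.3 CPM in hβ3 DMSO. Its Δβ3 values were 53.1, 31.7 and 43.0 CPM in docetaxel and 46.8, 40.4 and 41.4 CPM in DMSO. In pMx it had 49.5, 48.0 and 43.4 CPM in docetaxel and 39.9, 34.1 and 36.8 CPM in DMSO. Within each treatment every hβ3 culture lay below every culture of the other lines. The log2 difference of Fzd1 in DMSO was -0.95 ± 0.17 between hβ3 and pMx (adjusted p = 0.00125), and to Δβ3 it was -1.16 ± 0.17 (adjusted p = 0.000155). In docetaxel these were -0.75 ± 0.17 (adjusted p = 0.0081) and -0.61 ± 0.17 (adjusted p = 0.0266), and the last was lost without Δβ3 docetaxel culture 1 or any 1 of the hβ3 docetaxel cultures (adjusted p up to 0.105).

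Fzd3, a receptor known from planar polarity and axon guidance, had 27.2, 21.7 and 26.0 CPM in hβ3 docetaxel and 21.1, 21.5 and 22.7 CPM in hβ3 DMSO. It had 52.3, 28.7 and 51.0 CPM in Δβ3 docetaxel and 23.5, 33.3 and 37.5 CPM in Δβ3 DMSO, and 57.0, 50.2 and 55.4 CPM in pMx docetaxel and 40.8, 42.0 and 36.8 CPM in pMx DMSO. Here too all hβ3 cultures lay below those of the other lines within a treatment. The log2 difference of Fzd3 between hβ3 and pMx was -1.12 ± 0.21 in docetaxel (adjusted p = 0.00202) and -0.87 ± 0.21 in DMSO (adjusted p = 0.0107, and 0.0531 without pMx DMSO culture 2). To Δβ3 it was -0.82 ± 0.21 in docetaxel (adjusted p = 0.0172, and up to 0.105 without any 1 of the hβ3 docetaxel cultures) and -0.53 ± 0.21 in DMSO (adjusted p = 0.104, and 2.9e-05 with 16 libraries).

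Fzd7, a canonical receptor on chromosome 1 (59482424 to 59486955, plus strand), had 75.4, 78.7 and 86.6 CPM in hβ3 docetaxel and 72.5, 75.5 and 81.4 CPM in hβ3 DMSO. It had 143.6, 117.2 and 127.1 CPM in Δβ3 docetaxel and 188.6, 106.0 and 112.9 CPM in Δβ3 DMSO. The pMx cultures had 143.4, 136.8 and 142.7 CPM in docetaxel and 104.0, 105.6 and 102.4 CPM in DMSO. All 6 hβ3 cultures lay below all 12 others. Between hβ3 and pMx the log2 difference was -0.81 ± 0.17 in docetaxel (adjusted p = 0.0052), and in DMSO it was -0.44 ± 0.17 (adjusted p = 0.132, and 4.21e-05 with 16 libraries). To Δβ3 it was -0.69 ± 0.17 in docetaxel (adjusted p = 0.0152, and up to 0.0811 without hβ3 docetaxel culture 1 or 2) and -0.83 ± 0.17 in DMSO (adjusted p = 0.00303).

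**Figure D3:**
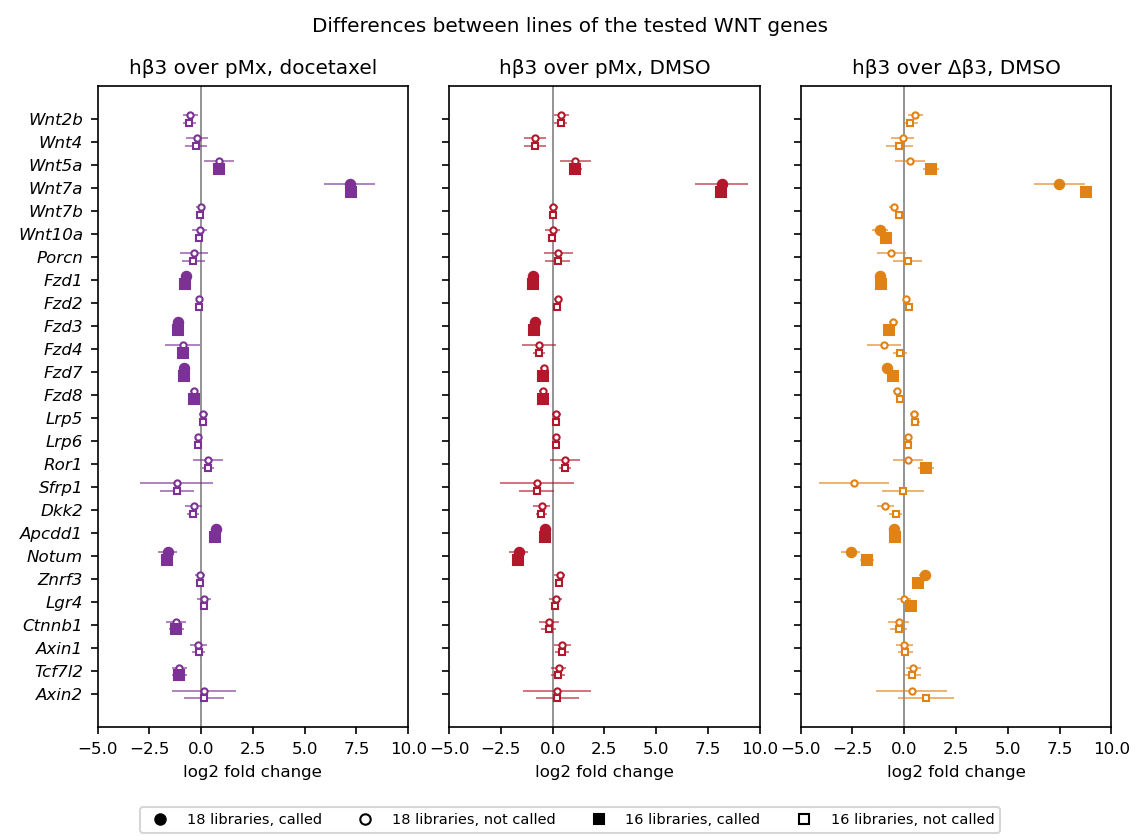
Fitted log2 differences between lines of the 26 tested WNT genes, with bars of 1 SE, from 18 libraries (circles) and from 16 (squares). Filled symbols were called at an adjusted p under 0.05. Wnt7a stood far to the right in each panel, and Fzd1, Fzd3, Fzd7 and Notum to the left.

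Fzd2 and Fzd8, the other well-measured Frizzled receptors, differed less between lines. Fzd2 had 65.4, 76.9 and 81.2 CPM in hβ3 docetaxel and 69.0, 82.1 and 71.1 CPM in hβ3 DMSO, 84.4, 51.3 and 75.7 CPM in Δβ3 docetaxel and 84.8, 61.9 and 62.6 CPM in Δβ3 DMSO. In pMx Fzd2 had 77.8, 81.7 and 77.4 CPM in docetaxel and 65.9, 65.8 and 56.8 CPM in DMSO. In DMSO the hβ3 cultures lay above those of pMx, the other ranges overlapped within a treatment, and no line difference of Fzd2 was called in either fit. Fzd8 had 30.8, 37.9 and 36.1 CPM in hβ3 docetaxel and 29.4, 32.6 and 26.7 CPM in hβ3 DMSO, 38.7, 65.0 and 37.8 CPM in Δβ3 docetaxel and 45.3, 31.6 and 35.1 CPM in Δβ3 DMSO. Its pMx levels were 46.5, 40.6 and 45.0 CPM in docetaxel and 42.5, 42.7 and 37.0 CPM in DMSO. They lay above the hβ3 levels in both treatments, a difference called with 16 libraries only (-0.35 ± 0.10 in docetaxel, adjusted p = 0.0124, and -0.48 ± 0.10 in DMSO, adjusted p = 0.000827). In both Δβ3 groups Fzd8 was highest in the culture with the high heart marker sum, and pMx held the highest such sums among the 16 libraries. The part of the marker transcripts in the Fzd8 difference was not tested.

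Fzd4, a receptor for WNT and norrin that is prominent in endothelium, had 2.77, 3.14 and 3.03 CPM in hβ3 docetaxel and 2.01, 3.84 and 2.98 CPM in hβ3 DMSO. In Δβ3 it had 4.12, 45.8 and 3.05 CPM in docetaxel and 10.7, 3.18 and 3.55 CPM in DMSO, and in pMx 8.57, 4.49 and 3.75 CPM in docetaxel and 5.89, 4.97 and 3.16 CPM in DMSO. The pMx docetaxel culture with the highest value, culture 1, also had the highest heart and endothelial marker sums of that group (2621 and 38.3 CPM). With 16 libraries Fzd4 was lower in hβ3 than in pMx in docetaxel (-0.89 ± 0.30, adjusted p = 0.0282), and the part of the marker transcripts in this was not tested. Ror1, a receptor tyrosine kinase that binds Wnt5a, had 2.55, 2.78 and 3.53 CPM in hβ3 docetaxel and 2.49, 1.92 and 3.33 CPM in hβ3 DMSO, 2.49, 18.2 and 1.7 CPM in Δβ3 docetaxel and 4.44, 0.931 and 1.56 CPM in Δβ3 DMSO. Its pMx levels were 2.75, 1.96 and 2.3 CPM in docetaxel and 2.51, 1.15 and 1.48 CPM in DMSO. The lines overlapped within DMSO with all cultures. Only the DMSO difference of hβ3 to Δβ3 was called, with 16 libraries (1.04 ± 0.38, adjusted p = 0.0475), among which these groups did not overlap. The co-receptors Lrp5 (6.14 to 12.4 CPM) and Lrp6 (176.8 to 213.2 CPM) were called between no pair of lines by edgeR in either fit. DESeq2 called Lrp6 lower in hβ3 than in Δβ3 in docetaxel (adjusted p = 0.0073).

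Apcdd1, a membrane inhibitor that binds WNT and Lrp5, had 189.9, 186.9 and 185.6 CPM in hβ3 docetaxel and 152.9, 173.0 and 168.5 CPM in hβ3 DMSO. Δβ3 levels were 130.4, 133.2 and 126.6 CPM in docetaxel and 255.6, 229.1 and 214.5 CPM in DMSO. Those of pMx were 119.8, 109.8 and 118.2 CPM in docetaxel and 207.9, 215.7 and 211.9 CPM in DMSO. The hβ3 cultures were the lowest of the 3 lines in DMSO and the highest in docetaxel, with no overlap in either. The log2 difference in DMSO was -0.36 ± 0.10 between hβ3 and pMx (adjusted p = 0.029), and to Δβ3 it was -0.50 ± 0.10 (adjusted p = 0.0026). The docetaxel difference was 0.69 ± 0.10 to pMx (adjusted p = 0.000228), and to Δβ3 it was 0.53 ± 0.10 (adjusted p = 0.00258). The DMSO difference to pMx was lost without hβ3 DMSO culture 1 or 3 or any 1 of the pMx DMSO cultures (adjusted p up to 0.12).

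Notum, a secreted enzyme on chromosome 11 (120653788 to 120661175, minus strand) that removes the fatty acid from WNT, had 1.38, 1.57 and 2.1 CPM in hβ3 docetaxel and 1.25, 1.36 and 0.639 CPM in hβ3 DMSO. It had 6.73, 2.64 and 3.5 CPM in Δβ3 docetaxel and 12.2, 4.19 and 3.37 CPM in Δβ3 DMSO, and 5.71, 4.39 and 5.48 CPM in pMx docetaxel and 3.29, 3.82 and 3.16 CPM in pMx DMSO. All 6 hβ3 cultures lay below all 12 others, with the highest value in Δβ3 DMSO culture 1. The log2 difference of Notum between hβ3 and pMx was -1.62 ± 0.45 in docetaxel (adjusted p = 0.0325) and -1.65 ± 0.46 in DMSO (adjusted p = 0.0312). Each was lost without any 1 of its own 6 cultures (adjusted p up to 0.142 and 0.155). To Δβ3 it was -2.59 ± 0.47 in DMSO (adjusted p = 0.00115), or -1.80 ± 0.32 with 16 libraries, and the docetaxel difference was -1.37 ± 0.45 (adjusted p = 0.0634, and 0.00022 with 16). In the annotation 29.4% of the exon bases of Notum are shared with Notumos on the opposite strand, and without a known strand setting reads of the 2 genes cannot be told apart. The same holds for the 6.61% of exon bases that Wnt7b shares with AU022754, the 4.58% that Wnt5a shares with Gm2670 and the 3.8% that Axin2 shares with Gm11670.

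Dkk2, a secreted ligand of Lrp5 and Lrp6, had 1.97, 1.64 and 1.6 CPM in hβ3 docetaxel and 1.18, 2.42 and 1.92 CPM in hβ3 DMSO. Levels in Δβ3 were 3.43, 1.24 and 4.03 CPM in docetaxel and 5.62, 2.64 and 2.25 CPM in DMSO, and in pMx 1.8, 2.24 and 2.63 CPM in docetaxel and 2.77, 3.12 and 2.13 CPM in DMSO. Groups overlapped with all cultures. The single call was a lower level in hβ3 than in Δβ3 in docetaxel with 16 libraries (-1.10 ± 0.30, adjusted p = 0.00982), among which these groups did not overlap. Sfrp1, a secreted decoy of Frizzled, had 0.142 to 4.64 CPM in 17 libraries and 31.7 CPM in Δβ3 docetaxel culture 2, with no call.

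Znrf3, a ubiquitin ligase that clears Frizzled receptors from the surface, had 11.6, 11.9 and 11.9 CPM in hβ3 docetaxel and 13.2, 19.0 and 16.1 CPM in hβ3 DMSO. In Δβ3 it had 9.79, 7.93 and 9.86 CPM in docetaxel and 4.24, 9.31 and 10.7 CPM in DMSO. The pMx line had 13.8, 10.7 and 12.2 CPM in docetaxel and 14.0, 13.5 and 10.8 CPM in DMSO. The hβ3 DMSO cultures lay above those of Δβ3, the lowest of which was the culture with the high heart marker sum, and overlapped those of pMx. Znrf3 was higher in hβ3 than in Δβ3 in DMSO by 0.99 ± 0.26 (adjusted p = 0.0177), or 0.68 ± 0.17 with 16 libraries, and was lost without hβ3 DMSO culture 2 or 3 (adjusted p up to 0.0836). Lgr4, the R-spondin receptor that holds Znrf3 back, had 46.7, 44.3 and 44.3 CPM in hβ3 docetaxel and 47.5, 50.9 and 47.3 CPM in hβ3 DMSO, 37.5, 113.3 and 37.6 CPM in Δβ3 docetaxel and 67.9, 36.5 and 41.4 CPM in Δβ3 DMSO. In pMx Lgr4 had 45.8, 38.4 and 39.0 CPM in docetaxel and 48.7, 42.8 and 40.9 CPM in DMSO. Apart from the 2 Δβ3 cultures with high heart marker sums its levels lay close together, and it was called only with 16 libraries, higher in hβ3 than in Δβ3 in DMSO (0.30 ± 0.11, adjusted p = 0.0411).

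Ctnnb1, which encodes β-catenin, had 0.947, 1.5 and 0.673 CPM in hβ3 docetaxel and 1.04, 0.806 and 0.993 CPM in hβ3 DMSO. It had 1.75, 0.311 and 1.7 CPM in Δβ3 docetaxel and 1.18, 1.63 and 0.606 CPM in Δβ3 DMSO, and 2.65, 2.62 and 2.02 CPM in pMx docetaxel and 0.952, 1.34 and 0.903 CPM in pMx DMSO. The 3 pMx docetaxel cultures lay above all others. Tcf7l2, a TCF factor, had 0.51, 1.07 and 0.925 CPM in hβ3 docetaxel and 1.8, 1.3 and 1.14 CPM in hβ3 DMSO, 1.68, 0.932 and 0.896 CPM in Δβ3 docetaxel and 0.987, 1.01 and 1.12 CPM in Δβ3 DMSO. Its pMx values were 2.01, 1.59 and 1.64 CPM in docetaxel and 0.952, 1.08 and 1.42 CPM in DMSO, so that the docetaxel cultures of pMx lay above those of hβ3. With 16 libraries both were lower in hβ3 than in pMx in docetaxel, Ctnnb1 with a log2 difference of -1.20 ± 0.36 (adjusted p = 0.0138) and Tcf7l2 with -1.06 ± 0.37 (adjusted p = 0.0322), and neither was called with 18. Both have several transcript models, and 14.6% of the exon bases of Ctnnb1 overlap Ulk4 on the opposite strand. Axin1, the scaffold of the degradation complex, had 0.311 to 2.06 CPM with no call.

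Axin2, a widely used readout of β-catenin activity, had at most 0.748 CPM in 17 libraries, with 0 to 9 counts each, and 14.1 CPM in Δβ3 docetaxel culture 2. No difference of Axin2 was called in any comparison, with 18 or with 16 libraries. The SE of its log2 difference of hβ3 to pMx in DMSO was 1.63, around a value of 0.21, in the fit with 18 libraries. With 16 libraries the difference was 0.23 ± 1.05 (adjusted p = 0.903).

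Between Δβ3 and pMx edgeR called 0 of 26 WNT genes in DMSO, where 0.0412% of all genes were called, and 0 in docetaxel, where 0.0247% were. At an unadjusted p under 0.05 there were 5 in DMSO and 4 in docetaxel. No share of all genes at that threshold is given here, so these counts cannot be set beside the shares above. DESeq2 called 0 in both. With 16 libraries the counts were 0 and 0 as well. Wnt7a differed by 0.69 ± 1.38 between Δβ3 and pMx in DMSO and by 3.04 ± 1.19 in docetaxel, or -0.22 ± 0.47 with 16 libraries.

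The second set of comparisons asked what docetaxel did. As the mean of the 3 lines, Fzd1 and Fzd3 rose, and Apcdd1 and Wnt7b fell. These were 4 of 26 tested WNT genes (2 higher and 2 lower), where 15.6% of all tested genes were called, 7.9% higher and 7.67% lower (edgeR quasi-likelihood test). With 16 libraries 10 were called, where 30.1% of all genes were called. The median log2 change of the 26 was 0.23, against 0.06 over all tested genes, and with 16 libraries 0.28 against 0.02.

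Apcdd1 changed by -0.51 ± 0.06 on the log2 scale as a mean of the lines (adjusted p = 1.72e-05), although it did not fall in hβ3. Wnt7b stood at -0.40 ± 0.12 (adjusted p = 0.0375), and every docetaxel culture of it lay below every DMSO culture of the same line. Fzd3 rose by 0.38 ± 0.12 (adjusted p = 0.0399) and Fzd1 by 0.29 ± 0.10 (adjusted p = 0.0469). Leaving out 1 library, Wnt7b stayed called without Δβ3 DMSO culture 2 or 3 or any Δβ3 docetaxel culture, Fzd3 without Δβ3 DMSO culture 1 or 3, Δβ3 docetaxel culture 2 or hβ3 docetaxel culture 2, and Fzd1 without Δβ3 DMSO culture 1, Δβ3 docetaxel culture 2 or hβ3 DMSO culture 2. The adjusted p of these 3 genes reached 0.0844, 0.0919 and 0.106 in the other fits, and all 3 were called with 16 libraries. Wnt7b then stood at -0.23 ± 0.06, Fzd3 at 0.41 ± 0.06 and Fzd1 at 0.39 ± 0.07.

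The other 6 genes called with 16 libraries all rose. They were the ligand Wnt10a (0.69 ± 0.10, adjusted p = 1.42e-05), the receptors Fzd7 (0.28 ± 0.05, adjusted p = 4.51e-05), Fzd2 (0.24 ± 0.06, adjusted p = 0.00172) and Fzd8 (0.20 ± 0.06, adjusted p = 0.023), and Notum and Ctnnb1 (0.57 ± 0.17 and 0.65 ± 0.23, adjusted p = 0.0137 and 0.0351). In the 18-library fit their adjusted p ran from 0.194 to 0.629. Ctnnb1 had 2 to 43 counts per library, and in hβ3 its docetaxel and DMSO cultures overlapped (0.673 to 1.5 and 0.806 to 1.04 CPM). Among the single lines its rise was called in pMx only, with 16 libraries. Wnt10a averaged 7.27 ± 1.01 CPM in docetaxel and 4.63 ± 0.152 CPM in DMSO in hβ3, and 7.65 ± 1.21 CPM in docetaxel and 4.63 ± 0.223 CPM in DMSO in pMx (SD, n = 3 each). Its docetaxel cultures lay above its DMSO cultures in both of these lines. In Δβ3 they overlapped with all 6 cultures and did not in the 4 cultures kept among the 16 libraries, at 14.3 and 11.8 CPM in docetaxel and 8.92 and 7.79 CPM in DMSO.

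**Figure D4:**
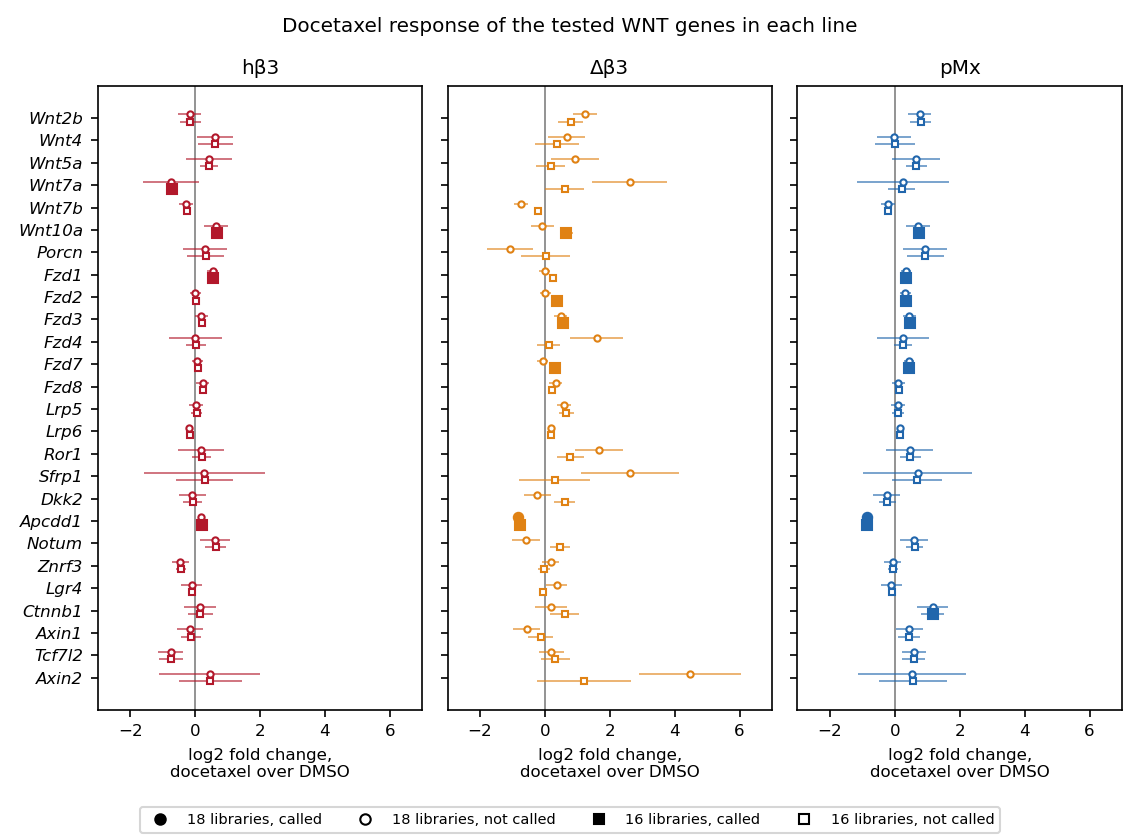
Fitted log2 change with docetaxel of the 26 tested WNT genes in each line, with bars of 1 SE, from 18 libraries (circles) and from 16 (squares). Filled symbols were called at an adjusted p under 0.05. Apcdd1 was the only gene with filled circles, left of 0 in Δβ3 and pMx, and in Δβ3 the 18-library values of Wnt7a, Fzd4, Ror1, Sfrp1 and Axin2 lay far from those of 16 libraries.

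In hβ3 alone edgeR called 0 of 26 WNT genes with docetaxel, where it called 1.16% of all tested genes at the adjusted p. At an unadjusted p under 0.05 there was 1, and DESeq2 called 1, Fzd1, with no share of all genes given here for either count. With 16 libraries 4 were called and 12.5% of all genes. Wnt7a fell (log2 -0.72 ± 0.12, adjusted p = 0.000221), and averaged 78.0 ± 2.39 CPM in docetaxel and 129.9 ± 7.52 CPM in DMSO (SD, n = 3 each). All 3 docetaxel cultures lay below the 3 DMSO cultures, and with 18 libraries the same change had an SE of 0.87 and an adjusted p of 0.963. Fzd1 rose by 0.56 ± 0.11, Wnt10a by 0.67 ± 0.17 and Apcdd1 by 0.20 ± 0.07 (adjusted p = 0.000896, 0.0104 and 0.0484).

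In Δβ3 alone 1 of 26 was called, Apcdd1, which fell to 130.1 ± 3.33 CPM in docetaxel, against 233.0 ± 20.8 CPM in DMSO (log2 -0.84 ± 0.10, adjusted p = 0.00015). There 6.87% of all tested genes were called, and the median change of all genes was 0.11. With 16 libraries 5 were called, where 11.3% of all genes were, with Fzd3, Fzd7, Wnt10a and Fzd2 rising by 0.31 to 0.66. DESeq2 on 18 libraries called 4, Apcdd1, Wnt7b, Lrp6 and Wnt2b, and its share of all genes is not given here. Mean CPM was lower in docetaxel for Apcdd1 and Wnt7b, and higher for Lrp6 (208.9 against 182.6) and Wnt2b (2.6 against 1.08). The largest fitted changes of this line, Axin2 at 4.46 ± 1.57, Sfrp1 at 2.61 ± 1.51 and Wnt7a at 2.61 ± 1.16, were not called, and with 16 libraries they were 1.21 ± 1.46, 0.30 ± 1.09 and 0.61 ± 0.60.

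In pMx alone Apcdd1 was again the 1 gene called, at 115.9 ± 5.35 CPM in docetaxel and 211.8 ± 3.91 CPM in DMSO (log2 -0.87 ± 0.10, adjusted p = 0.000101), where 3.62% of all tested genes were called. With 16 libraries 7 were called and 21.3% of all genes. Those that rose were Fzd7 (0.45 ± 0.08), Fzd3 (0.45 ± 0.10), Wnt10a (0.74 ± 0.17), Fzd2 (0.34 ± 0.09), Fzd1 (0.35 ± 0.10) and Ctnnb1 (1.17 ± 0.35), with adjusted p from 0.000102 to 0.0197.

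The third set asked whether the response to docetaxel differed between lines. Apcdd1 was the single WNT gene called in hβ3 minus pMx, at 1.05 ± 0.14 (log2, adjusted p = 0.00629), where 0.0165% of all tested genes were called. It was also the single one in hβ3 minus Δβ3, at 1.03 ± 0.14 (adjusted p = 0.00897), where 0.0412% of all genes were, and this call was lost without hβ3 DMSO culture 1 or hβ3 docetaxel culture 1 (adjusted p up to 0.0605). Both held with 16 libraries, with backgrounds of 2.3% and 0.591%. DESeq2 called Lrp6 in addition, with differences in response of -0.33 and -0.37 (adjusted p = 0.0466 and 0.0147). In hβ3 Lrp6 had 188.7, 182.5 and 181.9 CPM in docetaxel and 202.2, 207.3 and 213.2 CPM in DMSO, with the docetaxel cultures lower. In Δβ3 it had 210.3, 211.8 and 204.4 CPM in docetaxel and 180.7, 176.8 and 190.2 CPM in DMSO, and in pMx 208.2, 199.7 and 204.7 CPM in docetaxel and 188.1, 184.7 and 180.2 CPM in DMSO, with the docetaxel cultures higher in both. The edgeR differences of Lrp6 were -0.32 ± 0.13 against pMx and -0.36 ± 0.13 against Δβ3 (adjusted p = 1.0 and 0.541, and 0.0586 and 0.147 with 16 libraries). For Δβ3 minus pMx edgeR called 0 of 26, where it called 0.0% of all genes at the adjusted p. At an unadjusted p under 0.05 there was 1, and DESeq2 called 0.

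Several WNT genes were highest in Δβ3 docetaxel culture 2, the culture with the heart marker sum of 51766 CPM. There Fzd4 had 45.8 CPM, against 2.01 to 10.7 CPM in the 17 other libraries, Sfrp1 31.7 CPM, Ror1 18.2 CPM, Axin2 14.1 CPM, Wnt5a 10.7 CPM and Lgr4 113.3 CPM. Fzd8 was highest there as well, at 65.0 CPM. Ror2 (6.06 CPM), Sfrp2 (3.42 CPM), Nkd1 (2.49 CPM) and Wif1 (2.33 CPM) had more than 1 CPM in this library alone. Porcn, Wnt10a, Wnt7b, Axin1 and Ctnnb1 were among the genes with lower values in it than in both other Δβ3 docetaxel cultures. The part of the marker transcripts in these values was not tested.

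Of 120 other genes of the pathway 71 were tested with 18 libraries and 72 with 16. With docetaxel, as the mean of the lines, 8 rose and 3 fell, which is 11 of 71 beside the 15.6% of all genes, and with 16 libraries 15 rose and 11 fell, beside 30.1%. Hbp1, a repressor of TCF target genes, rose by 0.86 ± 0.09 (adjusted p = 7.47e-06), Frat1, which binds GSK3 and favours β-catenin, by 1.51 ± 0.21, Cxxc4, an inhibitor that binds Dishevelled, by 1.15 ± 0.22 and Apc2, a relative of the tumour suppressor Apc, by 0.59 ± 0.13. Among those that fell, Birc5, the apoptosis inhibitor survivin, stood at -0.42 ± 0.10 and Fosl1, an AP-1 factor, at -0.42 ± 0.12.

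Between hβ3 and pMx in DMSO 6 of the 71 were higher and 4 lower, beside 9.02% of all genes, and with 16 libraries 17 of 72 were higher and 15 lower, beside 26.8%. Fosl1 was higher by 1.37 ± 0.21, the tight junction gene Cldn1 by 1.81 ± 0.31, the coactivator Crebbp by 0.63 ± 0.13 and Apc by 0.62 ± 0.14, while the R-spondin receptor Lgr6 (-1.15 ± 0.24), the co-receptor Ptk7 (-0.87 ± 0.18) and Vegfa (-1.88 ± 0.53) were lower. Against Δβ3 in DMSO 7 were higher and 9 lower, beside 13.1% of all genes, and with 16 libraries 14 and 14, beside 23.3%. Those named by the rule were Cldn1 (3.04 ± 0.33), Snai2 (2.09 ± 0.33), Fosl1 (1.21 ± 0.21) and Apc (0.95 ± 0.14) among the higher genes, and Vegfa (-2.13 ± 0.54), Lgr6 (-1.48 ± 0.24), Ptk7 (-1.21 ± 0.18) and Cby1 (-0.87 ± 0.18), which binds β-catenin, among the lower. In docetaxel 2 of the 71 were higher and 5 lower in hβ3 than in pMx, beside 8.46%, and with 16 libraries 11 and 17, beside 27.3%. Against Δβ3 in docetaxel 4 were higher and 9 lower, beside 10.1%, and with 16 libraries 9 and 15, beside 19.9%. DESeq2 on 18 libraries called 12 of 69 against pMx and 21 of 69 against Δβ3 in docetaxel, and its share of all genes is not given here.

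A list of TCF and β-catenin targets had 18 tested genes in both fits. With 18 libraries 4 were higher and 1 lower in hβ3 than in pMx in DMSO (median log2 difference 0.20, against -0.01 over all genes), and 4 were higher and 3 lower than in Δβ3 (median 0.07, against 0.00). In docetaxel 2 were higher and 0 lower than in pMx (median 0.18, against -0.01), and 3 were higher and 1 lower than in Δβ3 (median -0.08, against -0.07). As the mean of the lines docetaxel gave 1 higher and 2 lower (median -0.19, against 0.06). With 16 libraries the 4 comparisons of hβ3 gave, in the same order, 8 and 2, 7 and 4, 7 and 3, and 6 and 3 higher and lower, and docetaxel 2 and 6. Of all genes 9.02% were called in hβ3 against pMx in DMSO with 18 libraries and 26.8% with 16, and the other shares are those given for the same comparisons of the pathway genes.

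Between Δβ3 and pMx edgeR called 0 of the 71 in DMSO and 0 in docetaxel, where 0.0412% and 0.0247% of all genes were called. At an unadjusted p under 0.05 there were 15 in DMSO and 12 in docetaxel, and DESeq2 called 1 and 0. No share of all genes is given here for these last counts, so they cannot be set beside the shares above. With 16 libraries edgeR called 0 of 72 in DMSO, where 0.332% of all genes were called, and 3 of 72 in docetaxel, where 0.453% were. These 3, named after their values were seen, were the casein kinase gene Csnk1g2 (0.84 ± 0.17, adjusted p = 0.0144) and Jun (0.32 ± 0.07, adjusted p = 0.0407), which were higher in Δβ3, and the receptor Adgra2 (-0.64 ± 0.13, adjusted p = 0.0177), which was lower. With 18 libraries the difference of Adgra2 was 0.24 ± 0.37 (adjusted p = 0.843).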

How the data were processed

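RNA of the 18 cultures was depleted of ribosomal RNA and read as single 50-base reads, per the labels. The authors deposited raw read counts of 63759 transcript models of 32699 symbols. FastQC, HISAT2, featureCounts and the build mm10 are named in the submitters' processing notes. Neither settings, strand use nor annotation is given in the sources used here. Lengths of the models, as deposited, are used for levels per kilobase only. Counts were summed per symbol (13170 symbols had several models). Gene coordinates are from GENCODE M21, and the upstream windows are from RefSeq.

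Genes were filtered with filterByExpr, scaled with TMM factors and tested two-sided with the robust quasi-likelihood F-test of edgeR 4.0.16 (R 4.3.3) in 1 design of 6 groups. That test prints no SE. Each SE of an edgeR difference is the size of the log2 difference divided by the square root of F, an approximation. Calls used a Benjamini-Hochberg adjusted p under 0.05 over all tested genes in each of 13 comparisons, first group minus second. Shares of all tested genes are from edgeR at that threshold, and none is given at an unadjusted p or for DESeq2. The test was checked on simulated counts with a biological coefficient of variation near that of the 16 libraries (13.2%). The 18-library fit had 36.1%, and the check does not cover that spread. Alternatives were 16 libraries, DESeq2 1.42.0, RLE factors, no filter on low counts, a replicate block and leaving out each library. The members, lists and tests were chosen with earlier results of these data known. Values in every library were given for members called with 18 or 16 libraries. Of the other pathway genes up to 4 per direction with the smallest p and a mean of at least 2 CPM were named, for the mean docetaxel response and the line pairs in DMSO. Labels give replicate numbers, but deviations of same-numbered cultures had a median correlation of 0.05, against -0.02 for cultures with different numbers. Lrp6 values in every library were added after the DESeq2 calls were seen.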

Additional observations from a re-analysis of the deposited data

Results flagged for a closer look

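Apcdd1, the membrane inhibitor of WNT, was picked out because its response to docetaxel differed between lines by a test of the difference itself. The difference in log2 response was 1.05 for hβ3 minus pMx and 1.03 for hβ3 minus Δβ3 (edgeR quasi-likelihood test, adjusted p = 0.00629 and 0.00897). In all 3 pairs of groups the docetaxel and DMSO cultures did not overlap, with docetaxel higher in hβ3 and lower in Δβ3 and pMx.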

How the results depend on the processing

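Every WNT gene and comparison called with 18 libraries, 31 in all, kept its direction under every alternative. All 31 were called with 16 libraries and with RLE factors, and 27 of the 27 that had an adjusted p with DESeq2. Without a filter on low counts 26 were called, with a replicate block 29, and over all fits that left out 1 library 467 of 558. Counts of called WNT genes moved by over 1.5 times as follows. With 16 libraries docetaxel gave 10 as the mean of the lines, 4 in hβ3, 5 in Δβ3 and 7 in pMx. In the same fit hβ3 gave 8 against pMx and 11 against Δβ3 in DMSO, and 11 against pMx and 10 against Δβ3 in docetaxel. DESeq2 gave 1 with docetaxel in hβ3 and 4 in Δβ3, and 2 for each difference in response of hβ3. With the replicate block the mean docetaxel response had 2, since Fzd1 and Fzd3 passed the threshold no longer (adjusted p = 0.0525 and 0.0546), and no count of another comparison changed. Same-numbered cultures of different groups had deviations that correlated over 0.1 in 18 of 45 pairs, with a median of 0.05. For different numbers it was 32 of 90 pairs, with a median of -0.02, so the numbers were not taken as pairing.

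Leaving out 1 library, the counts ran from 1 to 6 for the mean docetaxel response, 0 to 1 in hβ3, 1 to 4 in Δβ3 and 1 to 3 in pMx. They ran from 1 to 1 for the difference in response of hβ3 minus pMx, 0 to 1 for hβ3 minus Δβ3 and 0 to 0 for Δβ3 minus pMx. In DMSO they ran from 2 to 6 for hβ3 against pMx, 5 to 9 against Δβ3 and 0 to 1 for Δβ3 against pMx. In docetaxel these were 5 to 7, 1 to 9 and 0 to 0. The count of 1 for hβ3 against Δβ3 in docetaxel came without hβ3 docetaxel culture 1 or 2, the 9 without Δβ3 docetaxel culture 3, and the 2 for hβ3 against pMx in DMSO without pMx DMSO culture 2. For the mean docetaxel response 1 was left without hβ3 docetaxel culture 1, pMx docetaxel culture 1 or pMx DMSO culture 2 or 3. The 6, 3 and 1 of the mean, pMx and hβ3 responses and the 1 for Δβ3 against pMx in DMSO came without Δβ3 docetaxel culture 2, and the 4 in Δβ3 without Δβ3 docetaxel culture 1. The causes were not tested. The biological coefficient of variation was 36.1% with 18 libraries and 13.2% with 16. A count of 0 in 1 library allows a level of up to 0.158 to 0.376 CPM, for counting error alone.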

Other observations

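The genes around Wnt7a were looked at after the values of Wnt7a had been seen. Within 500 kb of its start 11 other protein-coding genes were tested, and in hβ3 against pMx in DMSO their adjusted p ran from 0.158 to 0.986 with 18 libraries (edgeR quasi-likelihood test). Chchd4, a mitochondrial import factor and the nearest at 62.2 kb, had a log2 difference of 0.25 in DMSO (adjusted p = 0.485) and 0.57 in docetaxel (adjusted p = 0.04), and Tmem43 at 62.3 kb had -0.13 and -0.12 (adjusted p = 0.865 each). Slc6a6, a taurine transporter at 272.7 kb, had -0.44 in docetaxel (adjusted p = 0.0429). Nup210, a nuclear pore gene at 294.5 kb, was higher in hβ3 than in Δβ3 in DMSO by 0.96 (adjusted p = 0.00348). Xpc, a DNA damage sensor at 104.5 kb, and Lsm3 at 104.6 kb stood at -0.31 and -0.02 in DMSO. Fbln2, a matrix protein with 1.15 CPM in hβ3 DMSO and 0.114 CPM in pMx DMSO, had the largest of these differences, 3.21 (adjusted p = 0.158, and 0.00377 with 16 libraries). With 16 libraries 6 of the 11 were called in that comparison, beside 26.8% of all tested genes.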
